A study of Mus musculus and Mus spretus with 72 samples.

Results

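Brain RNA of Mus spretus, the Algerian mouse, was set against brain RNA of 4 groups of house mouse, Mus musculus. The arrays were chosen by their titles, 24 brain arrays of the 72 in the series: 3 of spretus (M. spretus, animals 1, 2 and 3), and 21 of house mice. The house mice were 6 of the sub-species domesticus (dom), 6 of musculus (mus), 3 of castaneus (cas) and 6 listed only as ssp, with no sub-species given. All animals were males about 12 weeks old, 1 animal to an array, with no treatment named. Each array compared the animal's brain RNA with a pool of brain RNA from 9 mice of C57BL6, a laboratory strain, so every group is measured against the same kind of reference. Whether a group's animals were wild-caught or bred, and whether they were related, is not stated, so the p-values measure the spread between these animals only.

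The lineages that lead to spretus and to the house mouse separated well before the house mouse sub-species did, and house mice and spretus remain distinct species where their ranges meet. The series contrasts expression divergence at early and late stages of population divergence, and spretus is the most distant group in it. Brain holds neurons, glia and vessels in a fixed architecture, and RNA of a brain sample averages over them. In such bulk RNA, fewer cells of a type and less RNA per cell cannot be told apart.

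Values are log ratios of animal over pool, centred on each array's median, and a difference is taken as a log2 difference with its standard error (SE), positive where spretus was higher. Neither the log base nor the direction of the ratio is stated. Sample over pool is likely, because the second channel holds the sample; all signs would turn if it were the other way, and sizes would be larger by a constant factor if the logs were natural. A ratio to a brain pool holds no expression level, so the tissue cannot be checked by marker levels. Probe sequences were not at hand, and the match of the probes to spretus RNA was not examined. A difference in RNA amount and one in binding to the probe can therefore not be told apart. A probe is called when its Benjamini-Hochberg adjusted p, from a limma fit over all 5 groups, is under 0.05. Between 42947 and 44398 of 46128 spots per array carried a value, and the paired spots of a probe had a median correlation of 0.438 on a single array. Spretus arrays correlated with each other at 0.395 to 0.448 over all probes and with house mouse arrays at -0.179 to 0.160. Array 3 of cas stood apart, with an SD over probes of 0.406 against 0.150 to 0.311 on the other brain arrays and a median correlation of -0.0507 with the other house mouse arrays. Animal 8 of mus is titled mus but its sample channel is labelled domesticus, and it was kept in mus.

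Against the mean of the 4 house mouse groups, 814 of 20621 probes differed in spretus brain, 3.95% of those tested. In spretus 388 were higher (1.88%) and 426 lower (2.07%). The median difference was 0.46 among the higher probes and -0.40 among the lower ones. Large differences lay mainly on the higher side. By at least 1.5-fold 113 higher and 39 lower probes differed (0.737% together), and by at least 2-fold 25 higher and 8 lower ones. Most of the difference was lost without 1 spretus array for 64 of the 388 higher and 1 of the 426 lower probes. The gene is known for 605 of the 814 probes, 8 have several symbols, and 201 are not listed in the probe table and are unnamed here. The count without spretus 1, 2 or 3 was 361, 458 and 377, and without cas 3 it was 1397. The higher side then held more probes than the lower one, with 215 higher and 146 lower without spretus 1, 287 and 171 without spretus 2, and 226 and 151 without spretus 3. Of the 814 probes, 141 (69 higher, 72 lower) were called in each of these 3 fits. Of 105 called genes examined singly, 33 were called in each and 72 lost the call without at least 1 spretus array. The 33 are Ano10, Tomm40l, Tcaf1, Nubpl, Ak8, Tstd3, Mark3, Ubr4, Cdk3, Tbx2, Cecr2, Cox6a2, Dnah7b, Dnajc2, Dstn, Eftud2, Endod1, H2-Q5, Hoxd10, Igh-VS107, Igkv2-105, Map1a, Nap1l4, Pdlim1, Polr1b, Psmc3ip, Scn7a, Slc10a1, Sox17, Tmsb10, Tuba1b, Zfp579 and Zxdb.

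The arrays fall into sets that share the same missing spots, and the sets cross the groups unevenly. All 3 spretus arrays lay in a set with cas 1 and 2, mus 5 and 7 and ssp 4, 5 and 6, while all 6 dom arrays, the other mus arrays and ssp 1, 2 and 3 lay in another set and cas 3 shared its missing spots with no other brain array. Within the set that holds spretus, 3 spretus arrays were set against 7 house mouse arrays. There 61 probes were called (0.29% of 21017 tested), 20 higher (0.0952%) and 41 lower (0.195%). Of the probes called over all brain arrays, 808 had a value within the set, and all 808 kept their sign. Of these, 51 were called within it and 794 had an unadjusted p under 0.05 (limma). Their median ratio of the difference within the set to that over all arrays was 1.03. The arrays of the set enter both fits, so the fits are not independent. With the set as a term in the fit 1192 probes were called. No dom array shares a set with spretus, so for dom the set and the group cannot be told apart within a set.

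**Figure D1:**
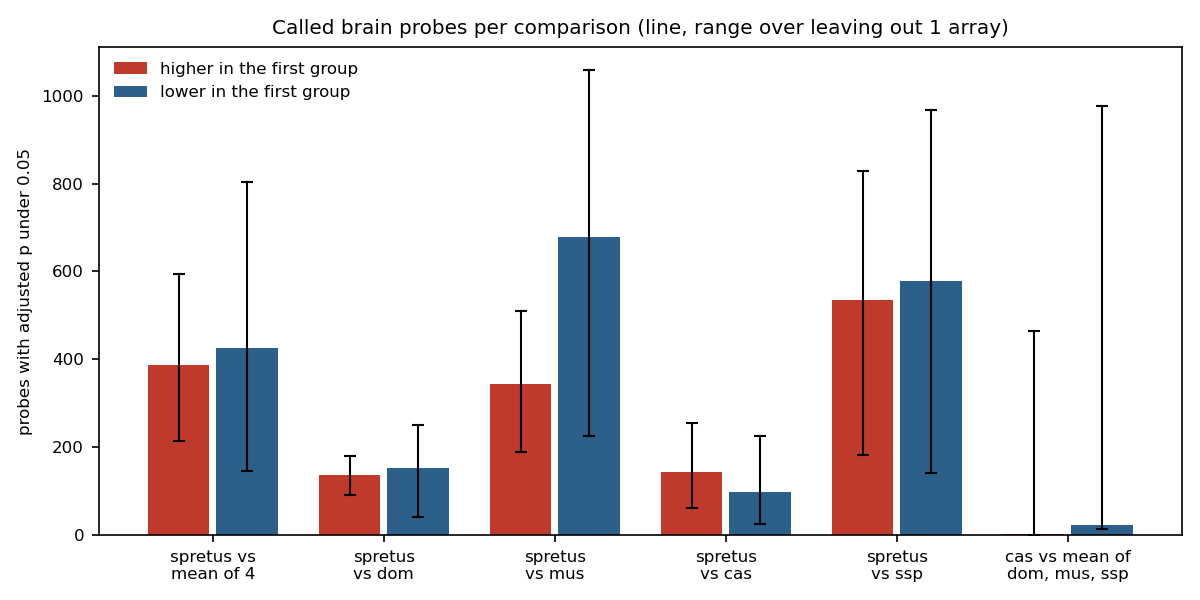
Number of brain probes called at an adjusted p under 0.05 in each comparison, split into probes higher and lower in the first-named group; black lines give the lowest and highest number when 1 array is left out. The bars against mus and ssp stand above those against dom and cas. This order changed when each fit held only the arrays of the groups compared. The count for cas against the other 3 groups ran from 15 to 1441, and was 19 without cas 3.

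The genes that stood furthest above house mice in spretus brain included 2 with mitochondrial roles, Nubpl and Tomm40l, and the membrane protein gene Ano10. Ano10 encodes a member of the anoctamin family of ion channels and lipid scramblases, and mutations of its human counterpart cause a cerebellar ataxia. It measured 1.52, 2.29 and 2.50 on the 3 spretus arrays. On 20 house mouse arrays its lowest, median and highest values were -1.08, -0.06 and 0.12. No house mouse array came near the spretus arrays, and the difference was 2.22 ± 0.17 (4.64-fold, adjusted p = 3.21e-08). It was 2.10 against dom, 2.18 against mus, 2.22 against cas and 2.36 against ssp.

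Tomm40l encodes a relative of the channel through which proteins enter mitochondria. It measured 2.36, 1.55 and 1.12 in spretus, and -0.47, -0.07 and 0.16 (lowest, median, highest) over 21 house mouse arrays. The groups did not overlap, and the difference was 1.77 ± 0.14 (adjusted p = 3.21e-08), between 1.68 against ssp and 1.92 against cas. Tcaf1 encodes a partner of the cold-sensing channel Trpm8. It measured 0.71, 2.46 and 2.22 in spretus, against -0.40, 0.03 and 0.40 over 21 house mouse arrays, a difference of 1.82 ± 0.19 (adjusted p = 4.51e-06). Spretus 1 was well below the other 2 spretus arrays and still above every house mouse array. Nubpl, an assembly factor that delivers iron-sulphur clusters to complex I of the respiratory chain, measured 1.70, 1.86 and 2.03 in spretus. House mice spread widely for this probe, from -1.66 on ssp 4 to 1.09 among mus arrays (median 0.01, 20 arrays), and the difference was 1.92 ± 0.29 (adjusted p = 0.000429).

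**Figure D2:**
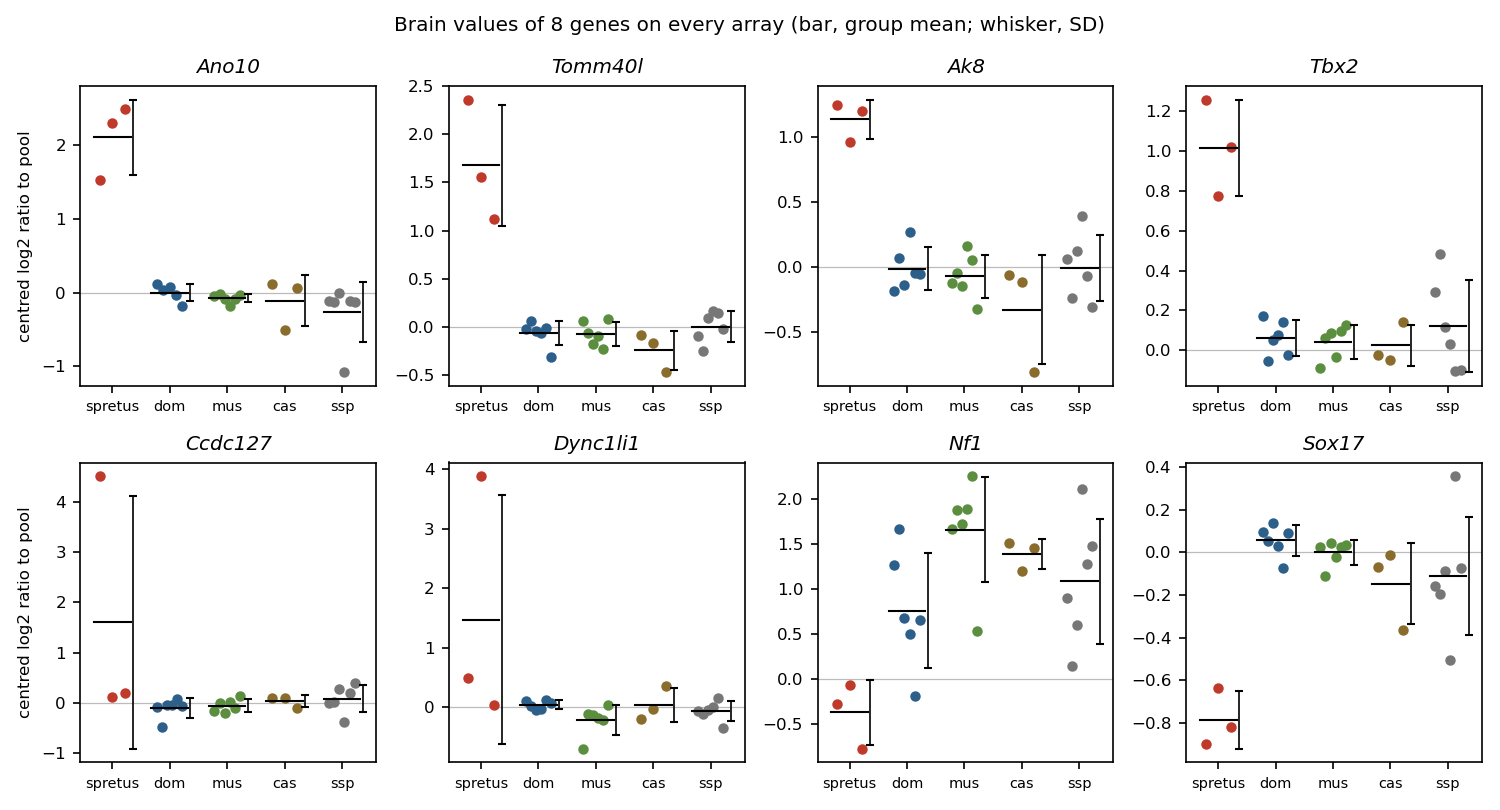
Centred log2 ratio to the pool of 8 genes on every brain array, spretus at the left of each panel; each point is 1 array, the bar the group mean and the whisker the SD. Ano10, Tomm40l, Ak8 and Tbx2 are high on all 3 spretus arrays and Sox17 is low on all 3, whereas the means of Ccdc127 and Dync1li1 are carried by 1 spretus array each.

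A core of 105 probes (0.509%) was called in the main comparison and in each of the 4 single ones, which share the 3 spretus arrays. From them the 10 genes with the largest smallest difference were taken. Besides Ano10, Tomm40l, Tcaf1 and Nubpl they are Ak8, an adenylate kinase of cilia and flagella (1.24 ± 0.13), Tstd3 of the thiosulfate sulfurtransferase domain family (1.21 ± 0.13), Mark3, a kinase that loosens microtubule-associated proteins (1.15 ± 0.16), Ubr4, a ubiquitin ligase (1.13 ± 0.13), Cdk3, a cyclin-dependent kinase of cell cycle entry (1.08 ± 0.15), and Tbx2, a T-box transcription factor of development (0.95 ± 0.10). Ak8 measured 1.24, 0.96 and 1.20 in spretus, against -0.81, -0.06 and 0.39 (lowest, median, highest) in 21 house mice. Tbx2 measured 1.26, 0.77 and 1.02 in spretus and -0.10, 0.06 and 0.49 in house mice. For each of the 10 the lowest spretus array lay above the highest house mouse array. The 10 were chosen on the same arrays, which favours such separation and also the calls within the set given next. Of the 105 core probes 90 were separated, above or below. Over all probes 2.22% were separated, 218 above (1.06%) and 240 below (1.16%). Of the 9 with values within the set of arrays that holds spretus, Ano10, Tomm40l, Ak8, Tstd3, Cdk3 and Tbx2 were called there too, with differences of 2.36, 1.74, 1.13, 1.20, 1.13 and 1.04. Tcaf1, Mark3 and Ubr4 had 1.76, 1.20 and 1.04 within it, and missed the threshold, with adjusted p = 0.0505 for Mark3 and 0.0597 for Ubr4.

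Promoter sequences are shown for Ano10 and Ak8, because of those 6 genes only these have a single entry in the RefSeq table used (GRCm38.p6). Each runs 5′ to 3′ from 250 bases before to 50 bases after the start of the gene, and capitals mark matches on either strand to 3 promoter motifs searched, the TATA motif TATAAA, the CAAT-box motif CCAAT and the GC-box motif GGGCGG, and no match overlapped another. The Ano10 window is chr9:122294374-122294673 on the minus strand and the Ak8 window chr2:28699911-28700210 on the plus strand. The reference sequence is that of C57BL6, not of spretus.
Ano10: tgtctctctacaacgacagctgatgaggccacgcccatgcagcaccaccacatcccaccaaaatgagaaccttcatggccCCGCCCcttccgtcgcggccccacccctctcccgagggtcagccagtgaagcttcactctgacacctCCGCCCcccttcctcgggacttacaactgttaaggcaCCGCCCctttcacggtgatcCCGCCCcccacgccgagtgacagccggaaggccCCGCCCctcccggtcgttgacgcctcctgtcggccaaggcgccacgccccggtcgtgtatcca
Ak8: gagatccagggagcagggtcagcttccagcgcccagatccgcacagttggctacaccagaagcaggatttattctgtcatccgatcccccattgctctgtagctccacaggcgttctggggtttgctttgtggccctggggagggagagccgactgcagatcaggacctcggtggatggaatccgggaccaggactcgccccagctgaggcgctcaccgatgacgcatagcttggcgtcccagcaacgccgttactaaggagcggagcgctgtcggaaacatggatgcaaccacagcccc
The Ano10 window holds 5 matches to GGGCGG, a motif that 35.7% of all 32851 windows hold, and neither TATAAA (13.6%) nor CCAAT (37.4%). The Ak8 window holds none of the 3.

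Of the 12 largest positive differences among named genes, 3 came mostly from 1 animal. Ccdc127, which encodes a coiled-coil protein, measured 4.51 on spretus 1, 0.11 on spretus 2 and 0.19 on spretus 3, against -0.49, 0.00 and 0.39 (lowest, median, highest) in house mice. Its difference of 1.62 ± 0.46 (adjusted p = 0.0484) was 0.16 (adjusted p = 0.728) without spretus 1, and its other probe gave 0.23. Dync1li1, a light intermediate chain of the dynein motor, measured 0.49, 3.89 and 0.04 in spretus, against -0.70, -0.05 and 0.36 in house mice, and its difference of 1.53 was 0.32 without spretus 2. Polr1b, the second-largest subunit of RNA polymerase I, measured 3.16, 0.64 and 0.41 in spretus, against -0.96, -0.06 and 0.27 in house mice, and its difference of 1.48 was 0.60 (adjusted p = 0.0488) without spretus 1. Each of these 3 high values came from a single spot, the duplicate spot carrying no value on that array. With only values for which both spots were present the differences were 0.16 for Ccdc127, 0.30 for Dync1li1 and 0.60 for Polr1b. Values from 1 spot on a spretus array occurred in 10.5% of all probes and in 8.11% of called probes. Of the 25 probes at least 2-fold higher, 5 lost more than 50% of their difference when 1 spretus array was left out. Of the 8 at least 2-fold lower, none did. Among all called probes, 64 of the 388 higher and 1 of the 426 lower ones did.

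**Figure D3:**
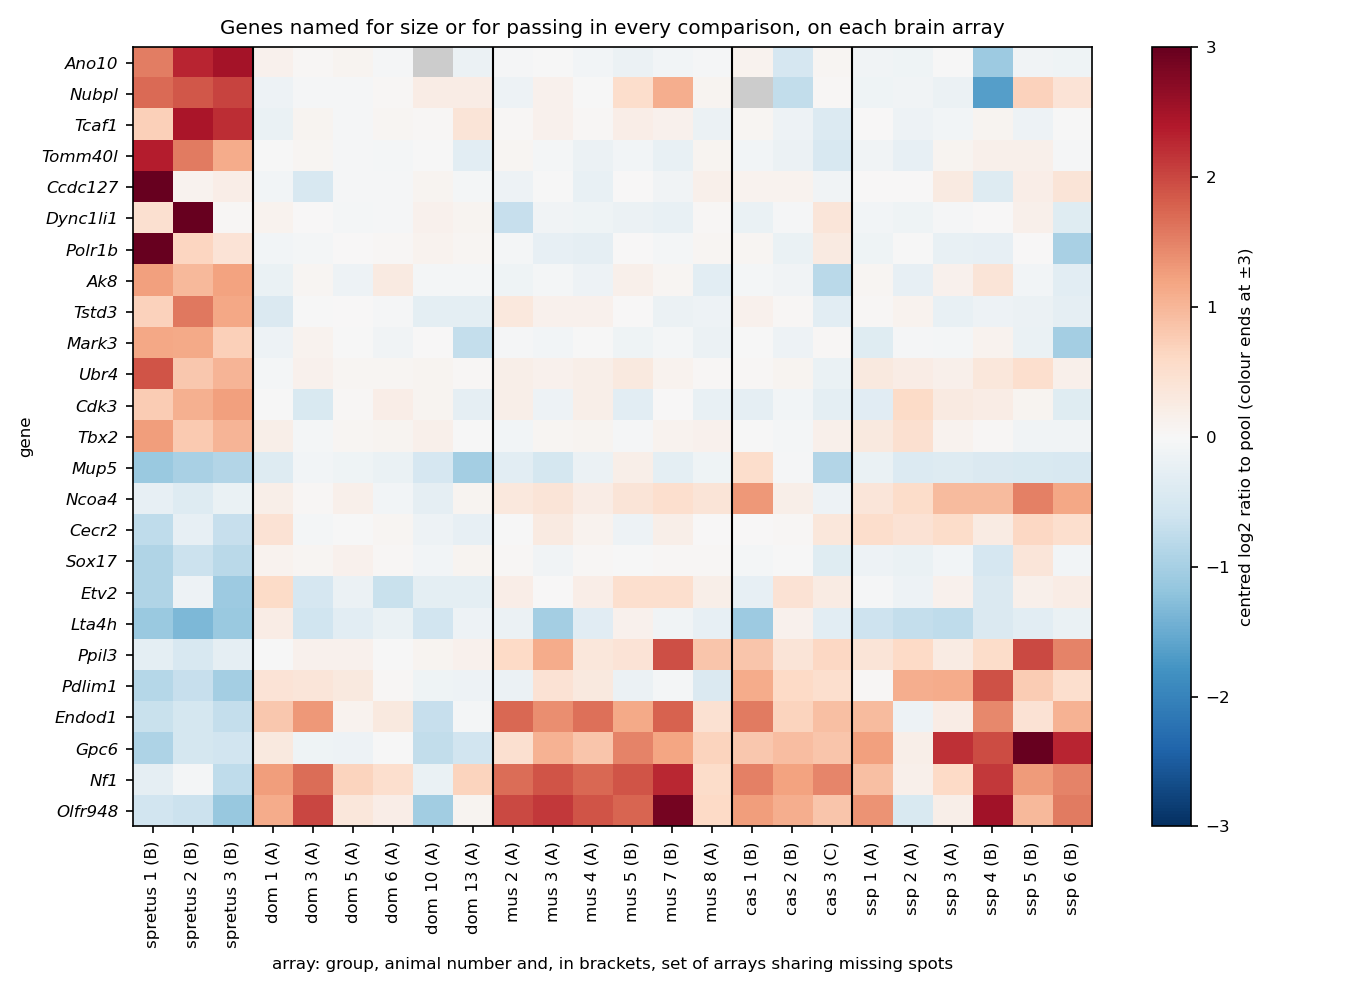
Centred log2 ratios of the 25 genes named for the size of their difference or for passing in every comparison, on each of the 24 brain arrays, with spretus at the left and the letter of the missing-spot set in brackets; grey cells carry no value. The upper genes are high on spretus arrays and mostly near 0 elsewhere, except that Ccdc127 and Dync1li1 are high on 1 spretus array only, and the lowest rows are near or below 0 in spretus while most house mouse arrays are above 0.

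Among the largest negative differences, Olfr948, Nf1, Gpc6 and Endod1 had house mouse values that spread widely and lay mostly above the pool, with spretus below it. Nf1 encodes neurofibromin, a brake on Ras signalling. It measured -0.27, -0.06 and -0.77 in spretus. In house mice the lowest, median and highest values were -0.19, 0.67 and 1.67 in dom, 0.54, 1.80 and 2.26 in mus, 1.20, 1.46 and 1.51 in cas and 0.15, 1.09 and 2.12 in ssp. The groups overlapped through 1 dom array, and the difference was -1.59 ± 0.32 (adjusted p = 0.00617), from -1.13 against dom to -2.03 against mus. Without spretus 3 it was -1.39 with an adjusted p of 0.07. The 2 other Nf1 probes gave 0.07 and 0.21 in the main comparison, so that 1 of 3 probes carries this difference. Over the brain arrays the values of 13 other probes followed those of this Nf1 probe with a Pearson correlation of at least 0.8, among them Olfr948 (0.967), Endod1 (0.945), Rpl41 (0.907) and Acta1 (0.907), and 5 of the 13 were called. All these probes were read on the same arrays, so their differences are not independent of each other.

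Olfr948, an olfactory receptor gene, measured -0.58, -0.64 and -1.14 in spretus, against -1.03, 1.12 and 2.86 (lowest, median, highest) in house mice, a difference of -1.89 ± 0.47 (adjusted p = 0.0235). Without spretus 1, 2 and 3 the adjusted p was 0.0796, 0.0783 and 0.14. It ran from -1.24 against dom to -2.66 against mus. Olfactory receptors form a large family of similar sequences, so a single probe of one is uncertain. Gpc6, a glypican of the cell surface, measured -0.93, -0.54 and -0.57 in spretus. The medians of its house mouse groups were -0.14 in dom, 0.95 in mus, 0.83 in cas and 2.07 in ssp, and the spretus difference ran from -0.46 against dom to -2.63 against ssp; its other probe gave 0.26 in the main comparison. Its call was lost without spretus 1, 2 or 3 (adjusted p = 0.131, 0.0666 and 0.0734). Endod1, an endonuclease domain gene, measured -0.68, -0.53 and -0.72 in spretus and -0.69, 0.89 and 1.76 in house mice (-1.47 ± 0.31, adjusted p = 0.0073). Within the set of arrays that holds spretus the 4 genes were called as well, at -2.51 for Olfr948, -2.05 for Nf1, -2.32 for Gpc6 and -1.81 for Endod1. The 4 were chosen for the size of their difference on arrays that also enter this fit, which favours these calls. No dom array is in the set, and the differences of Olfr948, Nf1 and Gpc6 were smallest against dom.

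Other lower genes were below the pool on every spretus array. Sox17, a transcription factor of endoderm and of arterial endothelium, measured -0.90, -0.63 and -0.82 in spretus, against -0.50, -0.01 and 0.36 in house mice. The groups did not overlap, and the difference was -0.73 ± 0.10 (adjusted p = 0.000186), called against each house mouse group. Pdlim1, a PDZ and LIM domain protein of actin stress fibres, measured -0.85, -0.70 and -1.03 in spretus, against -0.44, 0.36 and 1.91 in house mice (-1.30 ± 0.23). Lta4h, which makes leukotriene B4, measured -1.11, -1.35 and -1.12 in spretus and -1.09, -0.31 and 0.22 in house mice (-0.82 ± 0.20), and lost its call without spretus 1, 2 or 3 (adjusted p = 0.0663, 0.116 and 0.0655). Cecr2, a bromodomain protein of a chromatin remodeller needed for neural tube closure, differed by -0.73 ± 0.11 and was called against all 4 groups, although its other probe gave 0.14. The remaining large lower differences were those of the cyclophilin Ppil3 (-0.95), the vascular factor Etv2 (-0.74), Ncoa4, which sends ferritin to lysosomes (-0.72), and the urinary protein gene Mup5 (-0.71), a member of a cluster of related genes. Of these 4, Ppil3, Ncoa4 and Mup5 lost their calls without spretus 1, 2 or 3, and Etv2 without spretus 1 or 3.

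The number of called probes differed by the house mouse group. Against dom it was 289 (1.4% of the tested probes), 137 higher in spretus (0.664%) and 152 lower (0.737%). Against mus it was 1023 (4.96%), 344 higher (1.67%) and 679 lower (3.29%). Against cas it was 242 (1.17%), 143 higher (0.693%) and 99 lower (0.48%), and against ssp 1112 (5.39%), 534 higher (2.59%) and 578 lower (2.8%). Within the set of arrays that holds spretus it was 5 against mus (0.0238%), 4 against cas (0.019%) and 97 against ssp (0.462%). The 4 comparisons share the spretus arrays, and cas had 3 arrays where the others had 6, which gave a median SE of 0.140 against 0.121 for the others. They also share 1 estimate of spread over all groups, while the median SD between arrays was 0.114 in dom, 0.133 in mus, 0.192 in cas and 0.168 in ssp. With only the arrays of the groups compared in each fit, the order of the counts changed. It was then 784 against dom, 1491 against mus, 3 against cas and 359 against ssp. The counts without 1 array ran from 133 to 432 for dom, from 414 to 1569 for mus, from 85 to 455 for cas and from 323 to 1797 for ssp. For dom the highest count came without cas 3 and the lowest without spretus 1, and those without spretus 2, spretus 3 and dom 3 were 172, 169 and 190. For mus the highest count came without cas 3 and the lowest without spretus 3, with 509, 563 and 628 without spretus 1, spretus 2 and mus 4. For cas the highest counts were 455 and 386, without cas 1 and cas 2, and the lowest was 85 without spretus 3, beside 117 and 106 without spretus 1 and 2. For ssp the highest came without cas 3 and the lowest without spretus 1, with 536 and 491 without spretus 2 and 3. The balance of higher and lower probes was not stable. Against cas it turned to 91 higher and 141 lower with quantile normalization, to 110 and 127 without cas 3 and to 125 and 160 with the set as a term, and it was 88 and 29, 77 and 29, and 61 and 24 without spretus 1, 2 and 3. Against dom it turned to 91 higher and 42 lower, 119 and 53, and 103 and 66 without spretus 1, 2 and 3. Against ssp it was 328 higher and 208 lower without spretus 2, and against mus 263 and 300 without spretus 2 and 189 and 225 without spretus 3.

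The largest further differences in each single comparison were these. Against dom, spretus was 1.03 higher for the limb and axis patterning gene Hoxd10 (called in all 4 comparisons) and -0.88 for Hspa5, an endoplasmic reticulum chaperone, whose other probe gave -0.13 in the main comparison. Dscaml1, an adhesion molecule of neurons, measured 0.19, 0.09 and 0.06 in spretus and 0.09, 1.44 and 2.23 (lowest, median, highest) in dom. That difference of -1.13 (adjusted p = 0.046) stood beside 0.12 against mus, 0.14 against cas and 0.19 against ssp, and Dscaml1 was not called against the mean of the 4 (adjusted p = 0.772). Against mus, the ubiquitin ligase gene Rnf103 was 1.60 higher, and the ribosomal protein gene Rpl41 and the skeletal muscle actin gene Acta1 had differences of -2.30 and -2.36. Both resembled Nf1 in that spretus lay near 0, at 0.08, -0.16 and -0.59 for Rpl41 and -0.06, 0.06 and -0.68 for Acta1, while the house mouse medians were 1.16 and 1.66. Against cas, Mup2 had a difference of -2.48, with cas 3 at 4.34 beside 0.60 and -0.06 on cas 1 and 2. Ccl6, a chemokine, was 1.07 higher than in cas, Eppin, a protease inhibitor, 1.36 higher, and Cars, a cysteinyl-tRNA synthetase, had a difference of -0.88. Cas 3 was the cas array farthest from spretus for these 3 as well (-0.83 for Ccl6, -1.15 for Eppin and 1.07 for Cars). Eppin measured 0.00, 0.90 and 1.94 in spretus, and its paired spots on spretus 2 gave 1.74 and 0.06. Against ssp, Eftud2, a core protein of the spliceosome, was 1.21 higher and called against all 4 groups, and Zxdb (-0.93) and the CTP synthase Ctps2 (-0.98) were lower. The paired spots of Eftud2 gave 2.50 and 0.59 on spretus 2, and 0.10 and 1.11 on spretus 3. Asns (against mus), Tac4 (against ssp) and Thsd1 (against dom) were high on 1 spretus array each: 2.32 on spretus 1 for Asns, 2.41 on spretus 2 for Tac4 and 1.88 on spretus 1 for Thsd1, with the other 2 arrays between -0.03 and 0.22. On these arrays the paired spots gave 4.87 and -0.05 for Tac4 and 0.14 and 3.61 for Thsd1, and Asns had a value on 1 spot only.

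As a yardstick within the house mouse, cas was set against the mean of dom, mus and ssp with the same number of arrays as spretus, and 24 probes were called (0.116%), 2 higher (0.0097%) and 22 lower (0.107%). Spretus against the same 3 groups gave 1022 (4.96%), 453 higher (2.2%) and 569 lower (2.76%). The cas count depended on its arrays: it was 400 without cas 1, 1441 without cas 2, 19 without cas 3 and 15 without spretus 2. The fits that gave 400 and 1441 still held cas 3, the array that stood apart. Without cas 3 the spretus count against the same groups was 1525. Without spretus 1, 2 and 3 the spretus count was 392 (215 higher, 177 lower), 463 (278 and 185) and 470 (258 and 212). The gap was smaller at an unadjusted p under 0.05 (limma), with 2953 probes for cas and 4401 for spretus. Without cas 3 these were 916 and 4996. Divergence of the measured ratios was taken as the average squared gap between 2 group means, with the contribution of variation among animals subtracted. It was 0.0228 between spretus and dom (0.0212 to 0.0247 when an array of either group was left out), 0.0395 for mus (0.0367 to 0.0409) and 0.0382 for ssp (0.0353 to 0.0402). Between spretus and cas it was 0.0149, with 0.0237 without cas 3 and 0.00594 without cas 1. Among house mouse groups it lay between 0.000734 and 0.0121, and values below 0 occurred for pairs with cas when a cas array was left out. Every spretus value without cas was above every value between house mouse groups in which cas took no part, also with 1 array left out.

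No gene was called in limma among 8 neuronal, 10 GABA interneuron, 8 astrocyte, 7 myelin, 7 microglia, 7 endothelial and 6 choroid plexus markers, and none among 7 pituitary hormones, 4 red cell genes and 13 hypothalamic neuropeptides. At an unadjusted p under 0.05 there were 0, 4, 3, 1, 2, 0, 1, 0, 1 and 2, in that order. Of all 13624 genes with 1 symbol, 4.43% were called (280 higher, 323 lower), and 21% had an unadjusted p under 0.05. The neuronal markers lay between -0.14 and 0.17, among them Snap25 of the synaptic release machinery (-0.14), the neurofilament Nefl (-0.13) and Syn1 (-0.01). Of the astrocyte markers S100b measured -0.28, -0.24 and -0.32 in spretus, against -0.22, 0.04 and 0.33 in house mice, and missed the threshold (-0.33 ± 0.10, adjusted p = 0.0518); with 1 mean value per gene it passed (adjusted p = 0.0499). The same held for the appetite peptide Cartpt (-0.40, adjusted p = 0.0506 and 0.0490). Ttr, the choroid plexus carrier of thyroid hormone, was at -0.47 (adjusted p = 0.083) and the globin Hbb-b2 at 0.38 (adjusted p = 0.089), and neither passed.

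Among genes of neuronal signalling the called members were single genes in both directions. The shares called were 7.55% of voltage-gated channel, 8.33% of synaptic vesicle and 6.67% of glutamate receptor genes, beside 4.43% of all genes. With 1 mean value per gene, 3, 1 and 1 genes of these lists were called, in that order. Of 53 voltage-gated channel genes 1 was higher and 3 lower, namely the sodium channel Scn7a (-0.50 ± 0.09, called against all 4 groups, other probe 0.07), the potassium channel Kcnh1 (-0.38) and the presynaptic calcium channel Cacna1b (-0.32). The higher one, Kcnd3os (0.32), is an antisense gene to a channel and not a channel. Of 24 genes of synaptic vesicles 2 were called: Syn3, a synapsin, measured 0.88, 0.61 and 0.65 in spretus, against -1.15, -0.03 and 0.36 in house mice (0.82 ± 0.19, adjusted p = 0.016), and Napb, which recycles the fusion machinery, differed by -0.41 with 0.16 for its other probe. The kainate receptor Grik1 was the 1 called of 15 glutamate receptor genes (-0.39). None of 16 GABA and glycine receptor genes, 28 monoamine and acetylcholine genes, 62 protocadherin and adhesion genes or 20 calcium-binding genes was called. In limma 2, 6, 8 and 4 of them had an unadjusted p under 0.05, beside 21% of all genes. The activity-induced receptor Nr4a3 (0.43) and the clock repressor Bhlhe40 (0.46) were the 1 called gene each of 20 immediate early and 15 circadian genes (5% and 6.67%). Of the called genes of neuronal signalling, activity and clock named here, only Scn7a kept its call without each spretus array in turn.

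Genes of the cytoskeleton had 6 higher and 1 lower of 80, 8.75% called beside 4.43% of all genes, with a median difference of 0.05 against 0.01 over all genes. Tuba1b, an alpha tubulin, measured 0.37, 0.71 and 0.72 in spretus, against -0.34, 0.07 and 0.38 in house mice (0.57 ± 0.10, adjusted p = 0.00181). Its neighbour in gene order, Tuba1a, the main alpha tubulin of growing neurons, differed by 0.37 ± 0.10, and because their sequences are nearly identical the probes may read both. Map1a, which stabilises microtubules in mature neurons, measured 0.49, 0.87 and 0.66 in spretus, against -0.01, 0.16 and 0.45 in house mice (0.50 ± 0.09), while its other probe gave -0.23. Map1b, its counterpart in growing axons, differed by 0.25 ± 0.07. Tuba8 was lower (-0.29 ± 0.07), although it differed from cas by only -0.03. Dync1li1, described above, is 1 of the 6, and Kif4 (0.29) is another. Tuba1a lost its call without spretus 2 or 3, and Map1b and Tuba8 without any 1 spretus array, whereas Tuba1b and Map1a kept theirs.

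Of the chaperones there were 1 higher and 5 lower of 68, 8.82% called beside 4.43% of all genes, with a median difference of -0.11. Lower were Dnajc2 (-0.45 ± 0.08), Hspa5 (-0.51 ± 0.11), the chaperonin subunit Cct6b (-0.34), the small heat shock gene Hspb9 (-0.48) and Hspa4 (-0.43). Hsph1 was higher at 0.49, with 0.97 on spretus 2 beside 0.17 and 0.04 on spretus 1 and 3, and lost its call without spretus 2 (adjusted p = 0.466). Of the 5 lower ones only Dnajc2 kept its call without each spretus array in turn, and Hspa5 lost it without spretus 2 (adjusted p = 0.125). The 2 other probes of Dnajc2 gave -0.18 and -0.04. Ribosomal protein genes had 5 higher and 2 lower of 65, 10.8% called, and a median of 0.01. The higher ones were Rpl13 (0.70), Rps29 (0.65), Rpl35 (0.59), Rps12 (0.54) and Rpl9 (0.46), and the lower ones Rpl3 (-0.46) and Rps16 (-0.31). These genes have many processed copies in the genome, so their probes are uncertain. Spretus 2 had the highest value for Rpl35, Rps12, Rpl9 and Rps29 (1.09, 1.02, 0.88 and 1.23), and without it the calls of these 4 were lost (adjusted p = 0.12, 0.12, 0.28 and 0.31).

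In the mitochondrion, 3 of 82 genes of oxidative phosphorylation were called, all lower, a share of 3.66% near the 4.43% of all genes. Cox6a2, a subunit of cytochrome c oxidase of muscle and of some neurons, measured -0.43, -0.36 and -0.38 in spretus, against -0.24, 0.18 and 0.48 in house mice (-0.56 ± 0.10, adjusted p = 0.00292). Cox4i2, the oxygen-regulated subunit, differed by -0.40 and Atp5c1 of the ATP synthase by -0.31. Of 68 mitochondrial ribosomal protein genes 4 were higher (Mrpl14 0.38, Mrps5 0.37, Mrpl20 0.31, Mrps36 0.29) and Mrps7 was lower (-0.40), 7.35% called. Nubpl and Tomm40l were the 1 called gene each of 9 complex I assembly and 25 import genes (11.1% and 4%). Cox6a2, Nubpl and Tomm40l kept their calls without each spretus array in turn, and the other called mitochondrial genes named here did not.

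Among membrane transporters 1 of 224 solute carriers was higher and 7 lower, 3.57% called beside 4.43% of all genes. The lowest was Slc10a1, a bile salt transporter best known from liver, which measured -0.37, -0.51 and -0.41 in spretus, against -0.05, 0.18 and 0.56 in house mice (-0.61 ± 0.07, adjusted p = 1.74e-05, called against all 4 groups and within the set of arrays that holds spretus). Slc46a2 differed by -0.42. The higher one, Slc3a2, the heavy chain of amino acid exchangers, measured 1.81, 0.77 and 0.17 in spretus and lost its call without spretus 1 (0.43, adjusted p = 0.23). Of 63 interferon and MHC genes 3 were lower and none higher, 4.76% called and near the share of all genes. They were H2-Q5 (-0.38, other probes -0.20 and 0.03), Irf9 (-0.42) and Ifi27 (-0.30). Of 200 C2H2 zinc finger genes 7 were lower and 1 higher (4% called), with Zfp579 (-0.45), Zfp101 (-0.50) and Zbtb4 (0.43) the first by p. Of 110 ubiquitin ligase and protease genes 3 were higher and none lower (2.73% called). They were the ubiquitin protease Usp46 (0.56, other probe 0.42), Usp25 (0.51) and Fbxo45, a ligase of synapses (0.47).

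Some lists held few called genes or mixed ones. Immunoglobulin genes have many probes each, and 12 of their 279 probes were called (4.3%, 4 higher and 8 lower), near the 3.95% of all probes. With 1 mean value per gene, 3 of 92 were called. The probes first by p were those of Igkv2-105 (0.66), Igh-VS107 (-0.67) and Ighm (0.53), while the other 12 probes of Igh-VS107 lay between -0.31 and 0.11 and those of Ighm gave -0.15, -0.26 and 0.10. Variable gene segments share sequence, so these are uncertain. Splicing genes had Sf3a1 higher (0.58) and Hnrnph2 lower (-0.31) of 51, 3.92% called beside 4.43% of all genes. Detoxification genes had Gstt2 higher (0.36) and Aldh2 lower (-0.44) of 69 (2.9% called). The proteasome list had 2 lower of 47 (4.26% called), of which Psmd6 is a subunit (-0.31) and Psmc3ip acts in meiotic recombination and is no proteasome gene (-0.47). Olfr78 (-0.53) and Olfr948 were the called genes of 125 olfactory receptors (1.6%), and Vmn2r29 (-0.49) that of 11 vomeronasal receptors (9.09%). None of 10 Y-linked genes, 14 hepatocyte genes or 12 germ cell genes was called. In limma 2, 2 and 3 of them had an unadjusted p under 0.05, beside 21% of all genes.

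The same spretus difference was measured in liver/kidney and in testis on 24 arrays each. Array 2 of spretus in liver/kidney stood apart, as array 3 of cas did in brain, with which it shared its missing spots. Its SD over probes of 0.420 was the highest of the 72 arrays, and its median correlation with the other spretus arrays of that tissue was 0.108, against 0.246 and 0.188 for spretus 1 and 3. Liver/kidney results are therefore given with and without it, an alternative added after seeing the data.

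In liver/kidney 7.49% of probes were called (3.03% higher, 4.46% lower), and 4.65% without that array (2.79% and 1.85%). In testis 9.42% were called (5.63% higher, 3.79% lower). Of the 388 probes higher in spretus brain, 78 of the 387 also tested in liver/kidney were called higher there (20.2%, which is 12.5% of the probes called higher in liver/kidney), and 71 of 381 (18.6%) without the array. In testis it was 96 of 386 (24.9%, 8.21% of those called higher in testis). Of the 426 lower ones, 129 were called lower in liver/kidney (30.3%, 14.0% of those called lower there), 41 of 424 (9.67%) without the array, and 65 in testis (15.3%, 8.26%). The labels carry animal numbers across the 3 tissues, so these are not independent animals.

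Whether brain differed from the other tissues was tested by the difference of the 2 differences, with the animal as a random block. Brain minus liver/kidney was called for 392 probes (1.9% of 20589), 229 above 0 (1.11%) and 163 below (0.792%). The balance turned to 192 above and 220 below, 412 in all (2.01%), without array 2 of spretus liver/kidney, and to 121 and 138 with quantile normalization. Brain minus testis was called for 610 (2.96%), 194 above 0 (0.942%) and 416 below (2.02%). The genes described next were chosen for their brain values, which also enter this test, so a larger difference in brain is favoured by the choice.

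Ano10 differed by 0.32 ± 0.09 in liver/kidney and 0.10 ± 0.06 in testis, so that brain exceeded liver/kidney by 1.89 ± 0.17 (adjusted p = 4.43e-12), 1.79 ± 0.19 without the array that stood apart, and testis by 2.11 (adjusted p = 6.91e-15). Brain also exceeded both tissues for Tcaf1 (0.35 in liver/kidney, 0.10 in testis), Tomm40l (0.43 and 0.76) and Eftud2 (-0.08 and -0.01). For these 3 genes brain minus liver/kidney was 1.45, 1.54 and 1.14 without that array, each called.

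Other leading genes also differed in another tissue. Ubr4 differed by 1.04 in liver/kidney (1.55 without the array), beside 1.13 in brain, and by 0.31 in testis, from which brain differed by 0.82 (adjusted p = 0.00701). Ak8 and Cdk3 were called in all 3 tissues, at 0.92 and 0.83 in liver/kidney (0.91 and 1.17 without the array, both called) and 0.48 and 0.40 in testis. The lower genes Nf1, Olfr948, Gpc6 and Endod1 were called in liver/kidney as well, at -1.72, -1.99, -1.78 and -1.35, and of these 4 only Gpc6 was called in testis (-1.16). Without the array they were at -1.5, -1.81, -1.81 and -1.48 in liver/kidney, and Nf1 and Olfr948 were not called (adjusted p = 0.0623 and 0.0525).

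The 3 called genes with the largest differences below 0 in brain minus liver/kidney had smaller ones without the same array. Tmsb10, an actin-binding thymosin, and Rab4b, a GTPase of endosomes, were higher in spretus brain (0.77 and 0.86) and further above house mice in liver/kidney (2.54 and 2.13). Without the array they were at 1.56 and 1.15 in liver/kidney, and brain no longer differed from it by the test (adjusted p = 0.0662 and 0.546). Pdp2, a phosphatase of the pyruvate dehydrogenase complex, was lower in spretus brain (-0.43 ± 0.11) and measured 0.44 ± 0.11 in spretus liver/kidney, or 0.31 without the array (adjusted p = 0.148). Its brain difference remained below that of liver/kidney without the array (adjusted p = 0.0372).

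**Figure D4:**
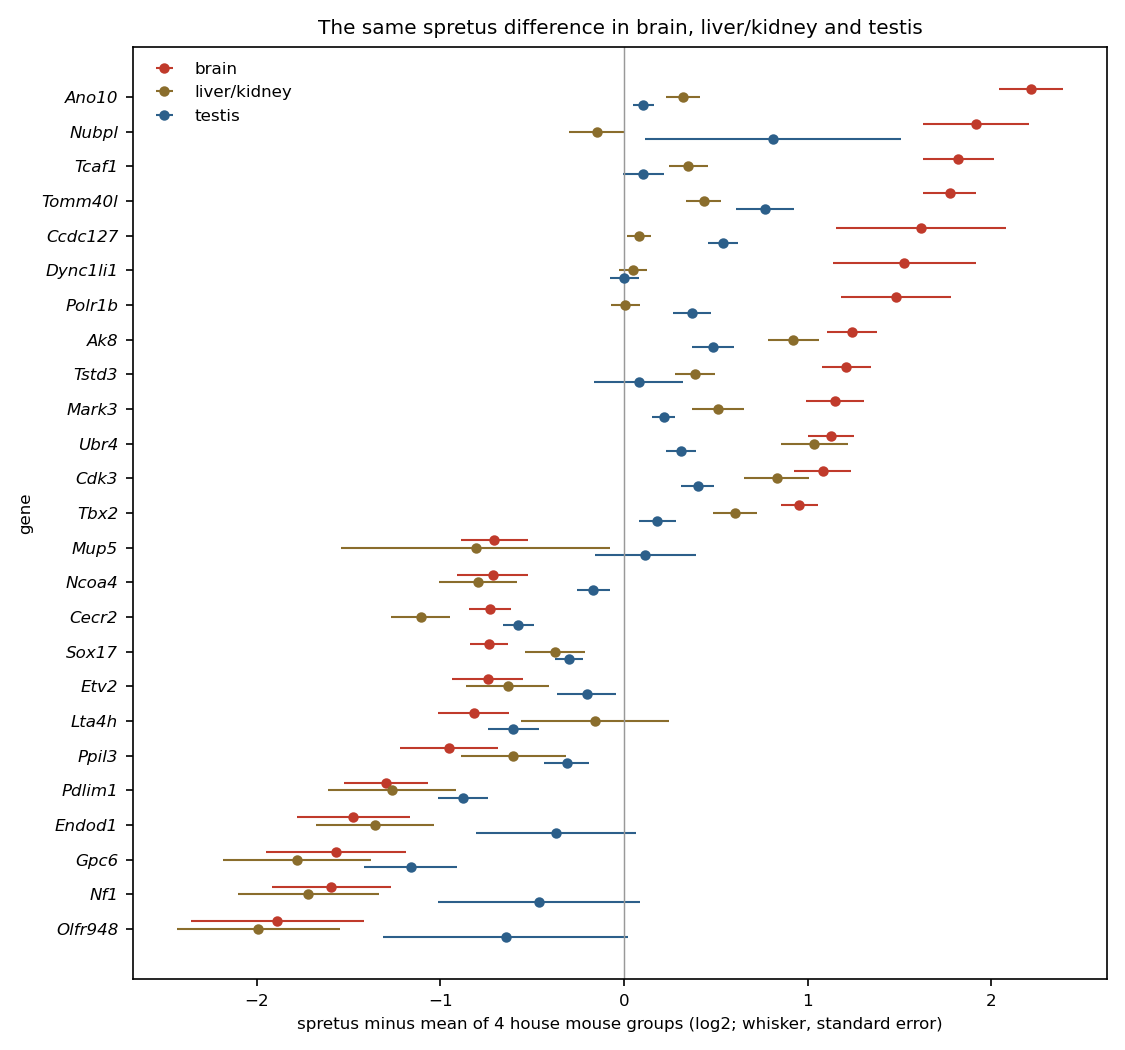
Spretus minus the mean of the 4 house mouse groups in brain, liver/kidney and testis for the 25 genes named for size or for passing in every comparison (points, log2 difference; whiskers, SE). Brain points of the upper genes down to Polr1b lie to the right of both other tissues, while brain and liver/kidney lie close together for Pdlim1, Endod1, Gpc6, Nf1 and Olfr948.

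A gene with several probes seldom showed the same difference on each. Of the 75 called genes with further tested probes, the other probes all had the same sign for 26, and for 2 another probe was called in the same direction. In gene order the share of called neighbours was near the background: the next gene with a tested probe was itself called in the same direction for 2.36% of 594 called genes, beside 2.07% of all 13420 next genes called higher and 2.35% called lower. Among the 14 such pairs were Tuba1b and Tuba1a, the cytokines Il24 and Il20 (-0.40 and -0.38), Gstt2 and Mif (0.36 and 0.48), Nap1l4 and Cars (-0.48 and -0.65), and Dstn and Rrbp1 (0.41 and 0.57).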

How the data were processed

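Brain RNA of 24 animals was hybridised on 2-colour arrays against a pool of brain RNA from 9 C57BL6 mice, per the labels and the series design. The deposited values are log ratios, taken as log2, 1 per spot; per the file headers neither base nor direction is given, and the authors' normalization is not given in the sources used here. Of 46128 spots, 22320 adjacent pairs hold the same probe and were averaged, 1488 single spots were left out, and 232 pairs of 1 control gene were merged, which left 22089 probes (15801 with 1 gene symbol, 294 with several, 5994 unlisted). GEO's platform annotation gave the symbols; 15601 probes were found in RefSeq by Entrez gene and none needed a new symbol. Each array was centred on its median.

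The model, limma 3.58.1 in R 4.3.3 (lmFit and eBayes), took every probe that had at least 2 values in each of the 5 groups, and p-values were adjusted by Benjamini-Hochberg over all 20621. On simulated data for spretus against house mice, which ran on 20621 probes with 200 changed, 61% of the changes of log2 0.5 and 97% of those of log2 1 were called. Of the calls 6.51% were false. The noise was normal and independent between probes and arrays, with 1 spread per probe in all groups. Extremes on single arrays, which the real data hold, were therefore not simulated, and the shares may not carry over to the real data.

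The members and gene lists were chosen with earlier results of these data known. Named were the 12 largest called differences of each sign, the 10 genes with the largest smallest difference among those called in all comparisons, the 2 largest of each sign in each single comparison, up to 3 called genes of each of 39 lists by smallest p, and the 3 largest of each sign in brain minus liver/kidney. Other genes were named after their values were seen: Tuba1a, Map1b, Kif4, Hspb9, Hspa4, Hsph1, Rpl9, Rps16, Rpl13, Rps29, Mrpl20, Mrps5, Cacna1b, the markers with values, and the neighbouring genes. Animal numbers do not pair the samples: deviations of same-numbered spretus and house mouse arrays correlated at -0.0808 to 0.0540 over 10 pairs. Sets of arrays are those whose missing spots overlap by more than 0.2 (shared over all missing); overlap was 0.298 to 0.584 within sets and 0.0124 to 0.0456 between them, and the labels name no batch. Array number limits the precision.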

Additional observations from a re-analysis of the deposited data

Results flagged for a closer look

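In 9 of 75 groups of brain arrays tested, 1 array lay far from the rest of its group by Dixon's ratio, where chance gives about 1 group in 20. For Ano10, ssp 4 measured -1.08, with the other ssp arrays between -0.12 and -0.01. For Nubpl, ssp 4 measured -1.66, with the others between -0.18 and 0.69. Tomm40l measured -0.31 on dom 13, Mark3 -0.70 on dom 13 and Ccdc127 -0.49 on dom 3, each below the other dom arrays. Dync1li1 measured -0.70 on mus 2 and Polr1b -0.96 on ssp 6. Nf1 measured 0.54 on mus 8, the array with conflicting labels, with the other mus arrays between 1.67 and 2.26. Mup5 measured -0.20 on ssp 1, above the other ssp arrays.

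The spretus difference in brain differed from that in another tissue for the named genes below by the tissue test, all at an adjusted p under 0.05 over all probes in limma. Brain minus liver/kidney and brain minus testis were 1.89 and 2.11 for Ano10, 1.47 and 1.72 for Tcaf1, 1.34 and 1.01 for Tomm40l, and 1.08 and 1.01 for Eftud2. They were 0.50 and 0.46 for the ubiquitin protease Usp46. For genes high on 1 spretus brain array they were 1.48 and 1.53 for Dync1li1, 1.47 and 1.11 for Polr1b, 0.80 and 0.80 for Thsd1, 0.98 and 1.23 for Tac4, and 0.83 and 1.14 for Slc3a2. Against liver/kidney alone the test was passed by Ccdc127 (1.54), Eppin (1.17), Mrps36 (0.56), Hoxd10 (-0.83), Igkv2-105 (-0.87), Tmsb10 (-1.77), Rab4b (-1.27) and Pdp2 (-0.87). Against testis alone it was passed by Ak8 (0.76), Tstd3 (1.13), Mark3 (0.93), Ubr4 (0.82), Tbx2 (0.77) and Asns (0.94). Without array 2 of spretus liver/kidney, which stood apart, the difference from liver/kidney was not called for Tac4 (0.91, adjusted p = 0.0928), Slc3a2 (0.62, adjusted p = 0.183), Tmsb10 (-0.79, adjusted p = 0.0662) and Rab4b (-0.29, adjusted p = 0.546), and was called for the other genes named for liver/kidney.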

How the results depend on the processing

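The 814 probes called in the main comparison became 3187 with array weights, 323 with the animal number as a replicate block, 61 within the set of arrays that holds spretus, 152 at 1.5-fold or more, and 1451 without both cas 3 and mus 8, a choice added after seeing the data. Against dom, 289 became 609 with quantile normalization, 2086 with weights, 176 per gene symbol, 52 with the replicate block, 173 and 111 with the set as a term and as a random block, 784 with only the groups compared, 445 without both arrays and 106 at 1.5-fold. Against mus, 1023 became 3302 with weights, 220 with the block, 5 within the set and 259 at 1.5-fold. Against cas, 242 became 55 with the block, 3 with only the groups compared, 4 within the set and 126 at 1.5-fold. Against ssp, 1112 became 3037 with weights, 702 per symbol, 148 with the block, 2021 with the set as a term, 359 with only the groups compared, 97 within the set, 1846 without both arrays and 228 at 1.5-fold. With quantile normalization, the interactions gave 259 and 291 for liver/kidney and testis, and cas against the other 3 groups gave 0 (1587 at an unadjusted p under 0.05, limma). Without 1 array the counts ran from 361 to 1397 (main), 133 to 432 (dom), 414 to 1569 (mus), 85 to 455 (cas), 323 to 1797 (ssp), 15 to 1441 (cas against 3 groups) and 392 to 1525 (spretus against 3 groups), and separated probes from 466 to 840. Without array 2 of spretus liver/kidney, 1547 calls in that tissue became 955, and brain minus liver/kidney 412.

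Of 3455 values of named genes in the main comparison, 3081 kept direction and side of the threshold, 326 lost the call and 45 gained it. Dscaml1, not called, was 0.0106 per symbol, 0.0041 with the replicate block and 0.22 within the set. With the replicate block 35 of 89 named genes lost their call, and within the set 62 of 87 did, where fewer arrays were fitted. The animal numbers do not pair the samples. The causes of the other changes were not tested. Duplicate spots correlated at 0.273 to 0.670, which limits single values.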
